A study of Mus musculus with 25 samples.

Results

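Splicing factor genes encode the proteins that recognise splice sites, assemble the spliceosome on them and set which exons are kept. Those described here are the genes whose symbol in the deposited tables begins with Srsf or Sfrs and a digit, Hnrnp, Sf3a or Sf3b and a digit, Snrp or Luc7l, together with Clk1 to Clk4, and whose value was marked OK in all 25 libraries. The rule matched 57 genes, and 55 of them passed, of 22985 gene symbols marked OK throughout. They are 12 SR protein genes, 4 CLK kinases, 3 Luc7-like genes, 8 genes of the SF3 complexes, 12 small nuclear ribonucleoprotein (snRNP) genes and 16 hnRNP genes. Hnrnpd and Hnrnpf matched the name but not the status, since each failed in 1 library; in the other 24 they measured 31.5 to 70.2 and 308 to 545 FPKM.

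RNA-seq was made from T cells of spleen and lymph node of C57BL/6 mice. Regulatory T cells (Treg) are the Foxp3-dependent cells that restrain immune responses, and conventional T cells (Tconv) are the other T cells of the study; p65 and c-Rel, encoded by Rela and Rel, are NF-κB transcription factors that act after antigen receptor and costimulatory signals. Unstimulated Treg were labelled p65 c-Rel DKO (2 libraries), c-RelKO (2), p65KO (3) and WT (4), and unstimulated WT Tconv had 2 libraries. Stimulated cells had CD3 and CD28 antibodies, at 2 µg/ml, with IL-2, for 3 h: DKO Treg (2 libraries), c-RelKO Treg (1), p65KO Treg (1), WT Treg (2) and WT Tconv (2). A separate TAT-Cre set holds 1 stimulated library each of Treg labelled FoxP3 del, Treg labelled NF-kB del, and WT Treg and WT Tconv with no deletion. The labels give no age, do not say whether animals were pooled, how the knockouts were made, which promoter drove any Cre, or whether libraries of a group came from separate animals, so p-values measure the spread between libraries, which may be technical.

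Splicing begins when the U1 snRNP binds the donor site and the U2 snRNP, with the SF3A and SF3B complexes, binds the branch point. SR proteins bind exons and favour their inclusion, hnRNPs bind nascent RNA more widely and often favour skipping, and CLK kinases phosphorylate SR proteins and so control where they act. Many SR and CLK genes also make transcripts that keep an intron or carry a premature stop, which stay in the nucleus or are degraded; a value per gene adds these to the coding transcripts and cannot tell them apart. In lymphocytes, activation and growth are known to raise the demand for RNA processing.

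Stretches of sequence before the annotated start are shown for genes that the results turn on: Clk4 and Sf3b1, which were lower without c-Rel, and Snrpa and Snrpc, which were higher in DKO Treg. They are the 250 bases before the start in RefSeq (build GRCm38.p6), written 5′ to 3′ on the gene's strand; Snrpa has 2 windows in the table, of which 1 is shown. Capitals mark CACGTG (the E-box), CTTCCGG (an ETS-type motif) and GGGCGG (the GC box) on either strand; none of these 3 shares a base with another here.
Clk4, chr11:51262864-51263113, plus strand: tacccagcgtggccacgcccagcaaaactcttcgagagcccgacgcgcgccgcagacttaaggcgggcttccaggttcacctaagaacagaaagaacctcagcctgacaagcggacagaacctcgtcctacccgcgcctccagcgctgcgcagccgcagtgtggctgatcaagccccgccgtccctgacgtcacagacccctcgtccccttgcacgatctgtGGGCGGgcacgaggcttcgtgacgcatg
Sf3b1, chr1:55027479-55027728, minus strand: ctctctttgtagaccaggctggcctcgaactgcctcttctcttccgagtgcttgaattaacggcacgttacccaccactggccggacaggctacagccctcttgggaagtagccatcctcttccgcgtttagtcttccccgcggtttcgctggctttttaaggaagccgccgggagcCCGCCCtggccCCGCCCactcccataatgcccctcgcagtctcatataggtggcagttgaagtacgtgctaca
Snrpa, chr7:27196272-27196521, minus strand: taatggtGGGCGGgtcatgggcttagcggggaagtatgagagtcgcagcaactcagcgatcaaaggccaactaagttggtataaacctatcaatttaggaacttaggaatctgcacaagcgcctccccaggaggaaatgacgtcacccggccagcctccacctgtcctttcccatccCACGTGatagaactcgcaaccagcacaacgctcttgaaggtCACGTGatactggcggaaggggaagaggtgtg
Snrpc, chr17:27839837-27840086, plus strand: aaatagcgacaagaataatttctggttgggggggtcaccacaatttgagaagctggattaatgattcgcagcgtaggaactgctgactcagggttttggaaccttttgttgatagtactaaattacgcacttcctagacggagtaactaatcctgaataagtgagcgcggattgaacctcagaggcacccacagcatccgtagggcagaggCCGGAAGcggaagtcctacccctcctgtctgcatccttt

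Clk4 held 1 GC box, Sf3b1 held 2, Snrpa held 2 E-boxes and 1 GC box, and Snrpc held 1 CTTCCGG. RefSeq starts were found for 47 of the 55 genes, in 61 windows, against 32851 windows of all genes. CTTCCGG stood in 26.2% of the genes' windows and 6.91% of all windows, and GGGCGG in 65.6% against 32.7%. CACGTG was at 6.56% against 6.02%, with only Clk2, Hnrnpa3 and Snrpa holding it, and TATAAA at 9.84% against 12.4%. The kappa-B consensus, the motif that NF-κB dimers bind, was in 0 of the 61 windows and in 3.90% of all windows, which says only that these letters are not in these windows. Overlaps between the motifs searched were not removed from the shares, and a match is a description of letters, not of binding.

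Some libraries stood apart from their labels. Cufflinks' own error bounds imply 15.4 to 52.8 M fragments per library. Rel was at 1.76 to 2.09 FPKM in unstimulated c-RelKO and DKO Treg, against 27.5 FPKM in replicate 1 and 200 to 271 FPKM in the other 3 WT Treg libraries; Rela was at 56.3 and 76.1 FPKM in DKO Treg and 58.0 to 79.8 FPKM in p65KO Treg, against 64.9 to 130 FPKM in WT Treg, so a value over the whole gene did not separate p65KO from WT. Foxp3 was at 8.01 and 21.2 FPKM in DKO Treg, against 129 to 351 FPKM in WT Treg and 0.542 and 0.927 FPKM in WT Tconv, so cells labelled DKO Treg carried little of the defining Treg transcript. Ikzf2, Ctla4 and Il2ra, the other Treg markers listed, had log2 changes of -2.30, -1.02 and 0.74 (limma, adjusted p = 1.5e-06, 0.22 and 0.20). All 4 markers summed to 747 and 891 FPKM in DKO Treg, 657 to 1764 FPKM in WT Treg, and 57.0 and 79.8 FPKM in WT Tconv. Replicate 2 of c-RelKO Treg held 20689 FPKM summed over 7 erythroid markers, 1691 over 10 myeloid and 224 over 7 B cell markers, against at most 634, 114 and 67.8 FPKM in WT Treg. Replicate 3 of p65KO Treg held 742 FPKM over the 10 myeloid markers. Stimulated and unstimulated WT Treg of the same run were close to identical: log2 values over 4383 genes differed with an SD of 0.118 and 0.175, against 0.602 and 0.610 in WT Tconv, and Myc was at 293 and 295 FPKM in stimulated WT Treg, against 267 and 270 FPKM in their unstimulated partners. In the TAT-Cre set, the library labelled FoxP3 del had 266 FPKM of Foxp3, against 86.7 FPKM in its WT Treg control.

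The library numbers in the labels fall into 4 consecutive runs. WT Treg replicates 1 to 4 lie in runs 1 to 4, and p65KO Treg replicates 1 to 3 in runs 1, 2 and 4. Replicates 1 and 2 of the groups with 2 libraries lie in runs 3 and 4. The single stimulated libraries of p65KO and c-RelKO Treg and the TAT-Cre set all lie in run 4. The labels do not call these batches. Snrpg, a protein of the Sm ring, differed by run, at 106 to 180 FPKM in runs 1 to 3 and at 27.6 to 57.6 FPKM in run 4. Snrpe was at 108 to 235 FPKM in runs 1 to 3 and at 60.6 to 145 FPKM in run 4, with overlap. Each comparison was therefore also made with run as a block, and the block's calls are given with its own background.

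On build mm9, the files place Clk1 at chr1:58468832-58480932, Clk2 at chr3:88968727-88981009, Clk3 at chr9:57598518-57613667 and Clk4 at chr11:51076673-51095266. Sfrs18 lies at chr4:21774730-21803622, Srsf6 at chr2:162757244-162762856, Luc7l3 at chr11:94152453-94183225, Sf3b1 at chr1:55042013-55084322 and Snrpa at chr7:27972025-27981290; each value is over the whole gene.

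The genes were abundant and differed widely among themselves. FPKM, a value scaled to transcript length and library size, allows levels of different genes to be compared. Over the 21 libraries that are not part of the TAT-Cre set, the hnRNP genes had the highest median level, 168 FPKM, ahead of 90.1 FPKM for SR proteins, 70.0 for SF3, 60.6 for snRNP, 54.6 for CLK and 43.8 for Luc7-like genes, with wide overlap between these families. Hnrnpa2b1, an RNA transport and splicing protein, was the most abundant at 521 FPKM, and Clk1 was second at 292 FPKM. Srsf12 and Snrpn, at 0.454 and 0.272 FPKM, fell under the filter of 1 FPKM in at least 2 libraries, which left 53 genes to test. Hnrnpa1 read only 7.04 to 20.7 FPKM; it has near-identical copies in the genome that could split its reads, so its value is uncertain.

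In Treg labelled DKO for p65 and c-Rel, splicing genes were called in both directions against WT Treg. All 4 CLK kinases and 4 of 11 SR protein genes fell, 6 of 11 snRNP genes rose, and of 8 SF3 genes 4 rose and Sf3b1 fell. Among 53 genes, 12 were higher and 11 lower at an adjusted p under 0.05 (limma, adjusted over 11532 genes); these are 22.6% and 20.8% of the genes, where 19.4% of all genes tested were called higher and 13.6% lower, so the share called higher was near that of all genes. The median change was 0.16 on the log2(FPKM + 1) scale for these genes and 0.06 for all genes. The block on run gave 22 higher and 14 lower, where 37.1% and 24.1% of all genes were called.

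Clk1, a kinase that phosphorylates SR proteins, changed most. It measured 79.3 and 89.3 FPKM in DKO Treg, against 223, 572, 573 and 406 FPKM in WT Treg replicates 1 to 4. DKO libraries lay below every WT library, although replicate 1 of WT Treg was much lower than its 3 fellows. The log2 change was -2.29 ± 0.38 (SE; adjusted p = 0.00046, limma), a 4.88-fold lower value on that scale. Clk4, its close relative, was at 24.7 and 23.9 FPKM in DKO Treg, against 71.6, 78.3, 71.0 and 56.0 FPKM in WT Treg, a log2 change of -1.46 ± 0.18 (adjusted p = 5.9e-05). The Clk4 groups did not overlap and each was tight. Where groups are said not to overlap, here and below, this describes the libraries and is no test. No share of all genes is given for it. Clk2 was at 17.7 and 23.8 FPKM in DKO Treg, against 42.5, 33.6, 30.9 and 32.5 FPKM in WT Treg, and fell by 0.73 on the log2 scale (SE 0.15, adjusted p = 0.0025). For Clk3, DKO Treg had 33.8 and 35.0 FPKM, against 36.2, 75.3, 89.8 and 79.0 FPKM in WT Treg, with a log2 change of -0.93 ± 0.30 (adjusted p = 0.028). The lowest WT library, replicate 1, came close to the DKO values for Clk3.

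**Figure D1:**
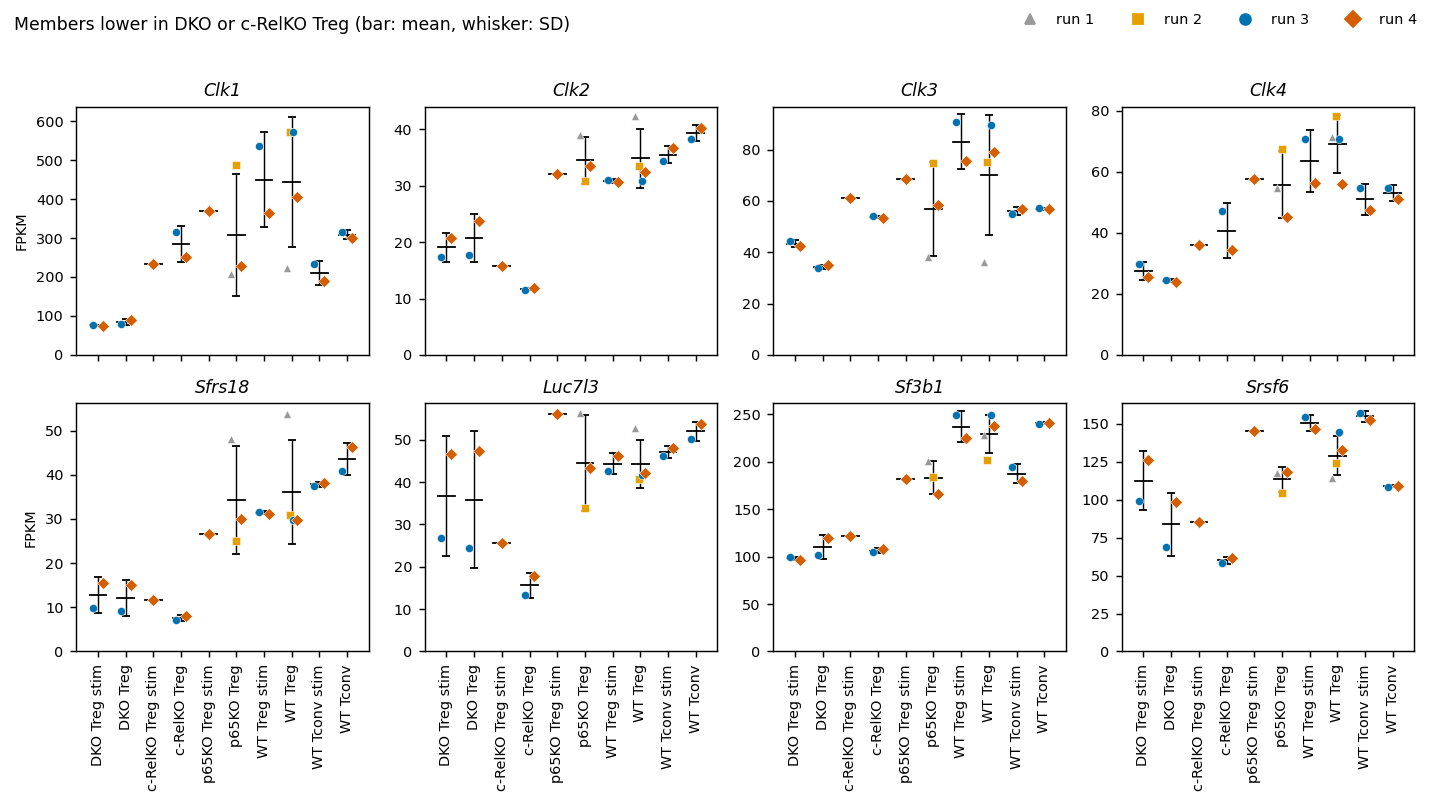
FPKM of 8 splicing genes that were lower in DKO or c-RelKO Treg, by group, with each library as a point coloured by run, the mean as a bar and the SD as a whisker. Clk1 sits at 74.0 to 89.3 FPKM in the 4 DKO libraries, and Clk2 at 11.5 to 15.8 FPKM in the 3 c-RelKO libraries, below every WT Treg library outside the TAT-Cre set.

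Of the 11 SR protein genes tested, 4 fell in DKO Treg, 1 rose and 6 were not called. Sfrs18, an older symbol for Pnisr, which encodes an SR-rich nuclear speckle protein, was at 9.26 and 15.1 FPKM in DKO Treg, against 53.8, 30.9, 29.8 and 29.8 FPKM in WT Treg (log2 change -1.48 ± 0.29, adjusted p = 0.0014). Srsf5, a classical SR protein, was at 97.4 and 64.5 FPKM in DKO Treg, against 215, 310, 255 and 144 FPKM in WT Treg (log2 change -1.48 ± 0.40, adjusted p = 0.012). In both, every DKO library lay below every WT library. Srsf11 and Srsf6 fell by 0.77 and 0.64 on the log2 scale (SE 0.23 and 0.15, adjusted p = 0.020 and 0.0056). Srsf1, a well studied classical SR protein, went the other way, at 97.0 and 138 FPKM in DKO Treg, against 80.8, 56.3, 73.2 and 78.3 FPKM in WT Treg (log2 change 0.69 ± 0.25, adjusted p = 0.046). Values not called ranged from -0.40 for Srsf7 to 0.56 for Srsf9. Of the Luc7-like genes, whose yeast relative is a U1 snRNP protein, Luc7l2 fell by 0.37 (SE 0.13, adjusted p = 0.049), and Luc7l and Luc7l3 had log2 changes of -0.57 and -0.36 that were not called.

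The U2-associated SF3 complexes held both directions. Sf3b1, the largest SF3B protein and the one that clamps the branch point, was at 101 and 119 FPKM in DKO Treg, against 228, 202, 249 and 238 FPKM in WT Treg. Its groups stood far apart, and the log2 change was -1.05 ± 0.13 (adjusted p = 5.4e-05). Its partners Sf3a1, Sf3a3, Sf3b4 and Sf3b5 rose, with log2 changes of 0.62, 0.66, 0.48 and 0.63 (SE 0.14 to 0.19, adjusted p = 0.0047 to 0.036). Sf3b5, a small SF3B protein, measured 110 FPKM in both DKO libraries, against 85.4, 73.8, 62.9 and 62.8 FPKM in WT Treg, with no overlap. Sf3a2, Sf3b2 and Sf3b3 were not called.

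All 11 snRNP genes tested had positive changes in DKO Treg, 6 of them called, and this direction also held when libraries were rescaled by size factors, where 4 were called. Snrpa, an RNA-binding protein of the U1 snRNP, was at 60.5 and 61.1 FPKM in DKO Treg, against 38.9, 34.3, 23.7 and 26.7 FPKM in WT Treg (log2 change 0.98 ± 0.19, adjusted p = 0.0014). Snrpc, the U1 protein that stabilises contact with the donor site, was at 59.2 and 48.4 FPKM in DKO Treg, against 27.4, 30.6, 32.9 and 24.7 FPKM in WT Treg (log2 change 0.88 ± 0.20, adjusted p = 0.0050). Both U1 proteins were above all WT libraries in each DKO library. Snrpd1, an Sm ring protein, reached 82.3 and 84.0 FPKM in DKO Treg, against 38.4, 60.7, 58.6 and 44.5 FPKM in WT Treg (log2 change 0.73 ± 0.21, adjusted p = 0.017). The U2 proteins Snrpa1 and Snrpb2 rose by 0.68 and 0.62, and the Sm protein Snrpb by 0.61 (SE 0.15 to 0.18, adjusted p = 0.0073 to 0.016). Snrpe and Snrpg were not called, with log2 changes of 0.64 and 0.26 and SEs of 0.47 and 0.93. With run as a block, in which differences between runs are taken out, their changes were 1.04 and 0.78 (limma, adjusted p = 4.3e-05 and 0.0018).

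**Figure D2:**
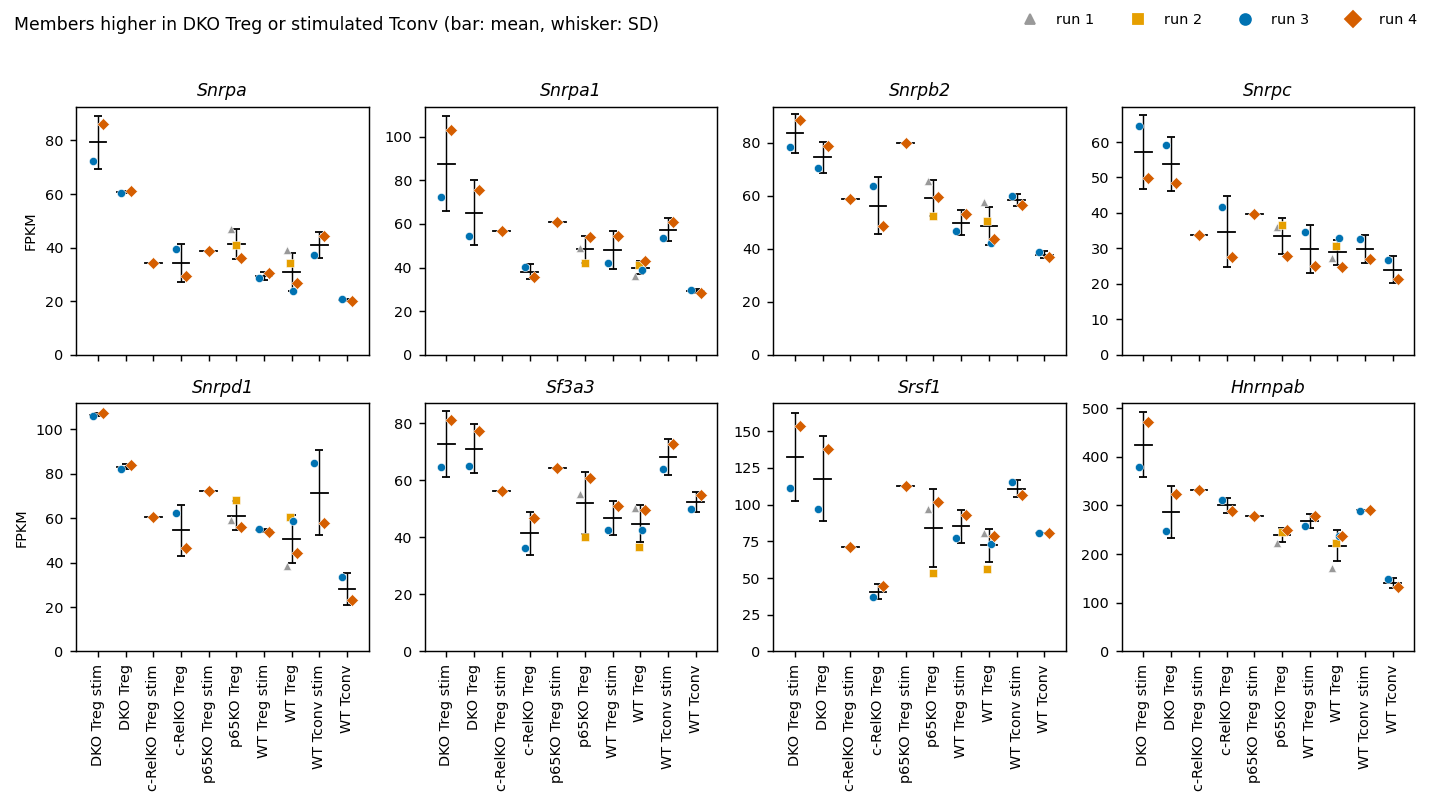
FPKM of 8 splicing genes that were higher in DKO Treg or in stimulated Tconv, by group, with each library as a point coloured by run, the mean as a bar and the SD as a whisker. Snrpa is at 60.5 to 86.2 FPKM in the 4 DKO libraries, above the 23.7 to 38.9 FPKM of unstimulated WT Treg, and Srsf1 is lowest in unstimulated c-RelKO Treg.

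Among 16 hnRNP genes, Hnrnpul1 rose in DKO Treg and Hnrnph1 fell. Hnrnph1, which binds G-rich RNA, was at 105 and 174 FPKM in DKO Treg, against 192, 241, 274 and 217 FPKM in WT Treg (log2 change -0.76 ± 0.22, adjusted p = 0.017). Its DKO libraries differed more from each other than its WT libraries did in relative terms, with the run 3 library lower. Hnrnpul1 was at 137 and 130 FPKM in DKO Treg, against 115, 98.9, 87.7 and 93.8 FPKM in WT Treg (log2 change 0.44 ± 0.13, adjusted p = 0.017). The other 14 were not called.

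Other transcripts, in lists chosen with earlier results of these data known, moved with these groups. Of 24 cell cycle genes, 23 were higher in DKO Treg, with a median log2 change of 2.65. Of all genes tested, 19.4% were called higher and 13.6% lower. Rrm1, a subunit of ribonucleotide reductase, averaged 133 ± 27.3 FPKM in DKO Treg and 25.8 ± 4.65 FPKM in WT Treg (SD, n = 2 and 4). Of 5 nuclear-retained transcripts tested, Malat1, Neat1 and Leng8 were lower and 2 were not called: Malat1, a long noncoding RNA of nuclear speckles, was at 24.7 and 19.9 FPKM in DKO Treg, against 223, 354, 259 and 205 FPKM in WT Treg. Summed NK and CD8 markers stood at 43.9 and 76.4 FPKM in DKO Treg, against 8.87 to 22.9 FPKM in WT Treg. Among them Gzma, Klrk1 and Ncr1 were higher, with log2 changes of 4.01, 2.95 and 0.86 (limma, adjusted p = 0.00025, 0.00012 and 0.011). Cd8a, Cd8b1 and Eomes had changes of -0.54, -0.44 and -0.08 that were not called. Myc was at 44.6 and 43.2 FPKM in DKO Treg, against 63.0 to 270 FPKM in WT Treg. The part of Myc, the cell cycle genes, the nuclear-retained transcripts, the low Foxp3 and the markers in the splicing genes' changes was not tested. In these bulk libraries, a smaller share of cells of one type and less RNA per cell cannot be told apart.

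Related splicing genes outside the family names behaved as follows in DKO Treg. Of 92 other spliceosome genes and splicing regulators, 17 were higher and 14 lower, 18.5% and 15.2% of them, where 19.4% and 13.6% of all genes were called. The nuclear speckle scaffold Srrm2 averaged 87.8 ± 10.1 FPKM in DKO Treg and 227 ± 40.7 FPKM in WT Treg (SD, n = 2 and 4; log2 change -1.35, adjusted p = 6.9e-05), and Prpf40b, whose yeast relative is a U1 snRNP protein, fell by 1.66 (adjusted p = 0.00019). Of 15 snRNP assembly genes, 7 rose and 0 fell, 46.7% and 0%; Prmt5, which methylates Sm proteins, averaged 37.4 ± 6.19 FPKM in DKO Treg and 18.1 ± 4.36 FPKM in WT Treg (log2 change 1.03, adjusted p = 0.0047). Among 8 SR protein kinase, phosphatase and import genes, Prpf4b, a kinase of the spliceosome, fell by 0.95 (adjusted p = 0.00016) and Ppp1ca, a phosphatase subunit, rose by 0.95 (adjusted p = 0.0073). Of 12 exon junction and nonsense-mediated decay genes, 2 were higher and 2 lower, 16.7% each, with Smg1, a kinase of that decay, at a log2 change of -1.09 (adjusted p = 0.00053).

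**Figure D3:**
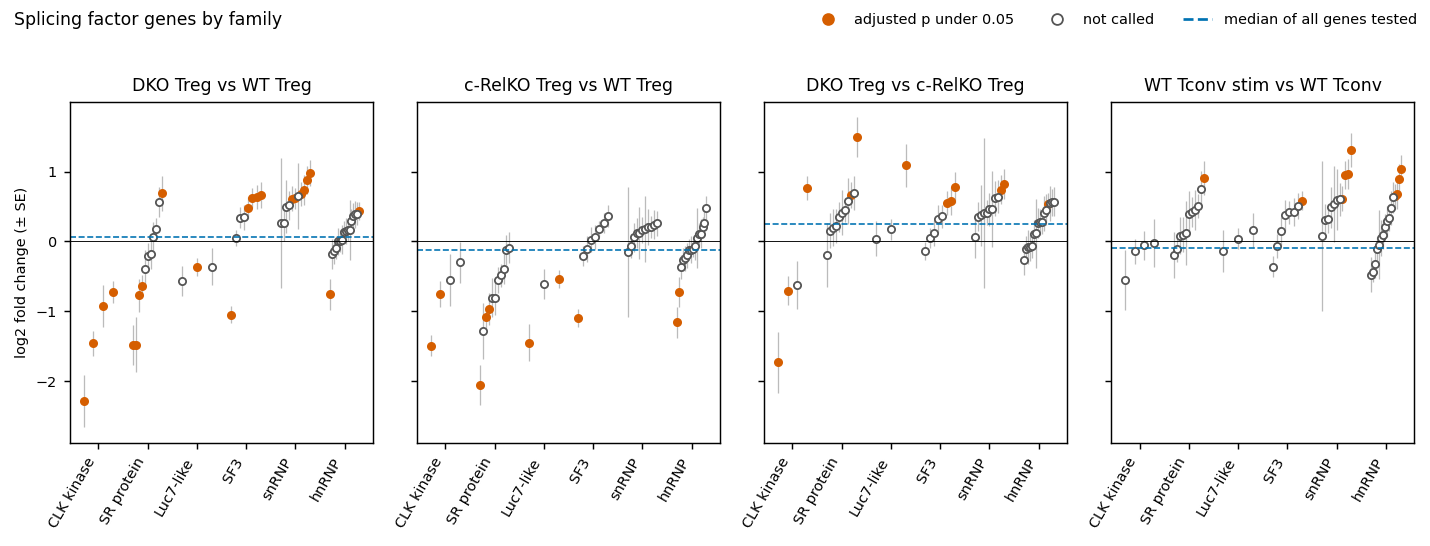
Log2 change of each gene tested, with its SE as a line, by family in 4 comparisons; filled points passed an adjusted p under 0.05, and the dashed line is the median of all 11532 genes. In DKO against WT Treg the 4 CLK kinases lie below the line and the 11 snRNP genes above it.

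Leaving out either DKO library lowered the count of called genes from 23: without replicate 1 it was 11 (6 higher, 5 lower), and without replicate 2 it was 12 (2 higher, 10 lower). Under size factors the split was 8 higher and 12 lower, where 17.3% and 16.2% of all genes were called, with Srsf1, Snrpb, Snrpd1 and Sf3b4 no longer called and Luc7l called lower. Clk3, Srsf1 and Sf3b4 were each called in only 1 of the 6 fits that left out 1 library, so these calls are weak.

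In Treg that lack c-Rel alone, 2 of 4 CLK, 3 of 11 SR and 2 of 3 Luc7-like genes fell against WT Treg. Sfrs18 and Clk2 had the largest falls, and Sf3b1 was at a level close to that in DKO Treg. Of the 53 genes, 0 were higher and 10 lower, where 1.62% and 8.98% of all genes were called; 19 of the 53 had an unadjusted p under 0.05. Those called lower were 18.9% of the 53, above the 8.98% of all genes. The median change was -0.12 for these genes and -0.13 for all genes, so it was the middle of the set that sat at the level of all genes. When run was a block, 7 were higher and 22 lower, where 15.8% and 25.9% of all genes were called. This comparison and the one of DKO Treg use the same WT Treg libraries, so the values below are set side by side without a measure of their likeness.

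Sfrs18 was at 7.16 and 8.07 FPKM in c-RelKO Treg, against 53.8, 30.9, 29.8 and 29.8 FPKM in WT Treg. Its log2 change was -2.06 ± 0.29 (adjusted p = 0.00057, limma), a 4.17-fold lower value on that scale, and no library of the groups overlapped. Clk2 was at 11.5 and 11.8 FPKM in c-RelKO Treg, against 30.9 to 42.5 FPKM in WT Treg, a log2 change of -1.49 ± 0.15 (adjusted p = 7.2e-05). Both c-RelKO values lay below the WT range; replicate 2 carried the erythroid and myeloid transcripts given above, whose part was not tested. Clk4 was at 47.1 and 34.4 FPKM in c-RelKO Treg, against 56.0 to 78.3 FPKM in WT Treg (log2 change -0.76 ± 0.18, adjusted p = 0.017). Clk1, at 316 and 251 FPKM in c-RelKO Treg, overlapped WT Treg at 223 to 573 FPKM, and Clk3, at 54.0 and 53.4 FPKM, overlapped WT Treg at 36.2 to 89.8 FPKM; neither was called.

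All 11 SR protein genes tested had negative changes in c-RelKO Treg, although 2 of them were positive under size factors, and 3 were called: Sfrs18, Srsf6 and Srsf11. Srsf6, an SR protein with a known role in exon choice, was at 58.4 and 61.6 FPKM in c-RelKO Treg, against 114, 124, 145 and 133 FPKM in WT Treg (log2 change -1.09 ± 0.15, adjusted p = 0.00057). Srsf11 was at 44.6 and 61.5 FPKM in c-RelKO Treg, against 86.9 to 126 FPKM in WT Treg (log2 change -0.97 ± 0.23, adjusted p = 0.017). Neither gene's groups overlapped. Srsf1 was at 37.1 and 44.2 FPKM in c-RelKO Treg, against 56.3 to 80.8 FPKM in WT Treg, and just missed the threshold (log2 change -0.80 ± 0.25, adjusted p = 0.053). Srsf5, Srsf7, Srsf10 and Srsf4 had changes of -1.29, -0.81, -0.55 and -0.49 that were not called (adjusted p = 0.055 to 0.081), and Srsf2, Srsf3 and Srsf9 lay between -0.40 and -0.09.

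Luc7l3, a Luc7-like protein of nuclear speckles, was at 13.5 and 17.7 FPKM in c-RelKO Treg, against 52.7, 40.7, 41.8 and 42.0 FPKM in WT Treg (log2 change -1.45 ± 0.26, adjusted p = 0.0036). The c-RelKO libraries were both far below the WT range. Luc7l2 fell by 0.54 on the log2 scale (SE 0.13, adjusted p = 0.020), and Luc7l had a change of -0.61 that was not called. Sf3b1 was at 105 and 108 FPKM in c-RelKO Treg, against 202 to 249 FPKM in WT Treg (log2 change -1.10 ± 0.13, adjusted p = 0.00018). It was the 1 SF3 gene called, and the 11 snRNP genes had 0 calls, with a median change of 0.16. Among hnRNPs, Hnrnph1 was at 93.3 and 111 FPKM in c-RelKO Treg, against 192 to 274 FPKM in WT Treg (log2 change -1.16 ± 0.22, adjusted p = 0.0044), and Hnrnph3 fell by 0.73 (SE 0.22, adjusted p = 0.047), a call kept in 1 of 6 fits that left out a library.

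Of the 5 nuclear-retained transcripts, 3 fell in the same libraries and 2 were not called: Malat1 was at 35.3 and 42.0 FPKM and Neat1 at 17.1 and 27.2 FPKM in c-RelKO Treg, against 205 to 354 FPKM of Malat1 and 98.0 to 228 FPKM of Neat1 in WT Treg. Leng8 averaged 12.8 ± 0.739 FPKM in c-RelKO Treg and 80.6 ± 7.48 FPKM in WT Treg (SD, n = 2 and 4; log2 change -2.56, adjusted p = 3.8e-06). This list was chosen with earlier results of these data known, and its part in the splicing genes' falls was not tested. Of all genes tested, 1.62% were called higher and 8.98% lower here. Of the 92 other spliceosome genes, 1 was higher and 20 were lower, 1.09% and 21.7% of them. Among those lower, Srrm2 was at 102 ± 10.1 FPKM in c-RelKO Treg and 227 ± 40.7 FPKM in WT Treg (log2 change -1.13, adjusted p = 0.0010, limma). Prpf39, a U1-associated protein, was at -1.59 (adjusted p = 0.0011). The SR protein kinase Srpk1 fell by 0.93 (adjusted p = 0.0061) and Prpf4b by 0.71 (adjusted p = 0.0045). Of 15 snRNP assembly genes 0 were called, with 2 at an unadjusted p under 0.05. Of 12 exon junction and decay genes 2 were lower, 16.7% of a short list. In the cell cycle list, 2 of 24 were higher, with a median change of 0.50.

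Under size factors, which called 3.43% of all genes higher and 6.09% lower, 6 of the 10 calls were left, without Srsf11, Clk4, Hnrnph3 and Luc7l2. Leaving out replicate 1 of c-RelKO Treg left 5 calls, while leaving out replicate 2, the one with the erythroid transcripts, left 7. Without WT Treg replicate 1, p65KO Treg replicate 1 and c-RelKO Treg replicate 2 together, 7 were called, with Clk4, Luc7l2 and Hnrnph3 lost.

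Set directly against each other, DKO Treg had lower Clk1 and Clk4 than c-RelKO Treg and higher Srsf1, Luc7l3 and several core proteins. Of 53 genes, 10 were higher and 2 lower, where 19.5% and 5.91% of all genes were called, and the median change was 0.36 for these genes and 0.25 for all genes. That shift of all genes is large, and the changes given for single genes below are not corrected for it. Size factors bring the median of all genes to 0.01. Under them 3 genes were higher (Srsf1, Clk2 and Snrpa) and 2 lower (Clk1 and Clk4), where 10.4% and 9.09% of all genes were called. Blocking on run, 26 were higher and 4 lower, where 42.5% and 17.8% of all genes were called.

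Srsf1 was at 97.0 and 138 FPKM in DKO Treg, against 37.1 and 44.2 FPKM in c-RelKO Treg, with a log2 change of 1.49 ± 0.28 (adjusted p = 0.0027). Clk1 was at 79.3 and 89.3 FPKM in DKO Treg, against 316 and 251 FPKM in c-RelKO Treg (log2 change -1.73 ± 0.43, adjusted p = 0.012), and Clk4 had a change of -0.71 ± 0.21 (adjusted p = 0.026). For Srsf1 and Clk1 the pairs stood well apart in both runs. Luc7l3 was at 24.4 and 47.3 FPKM in DKO Treg, against 13.5 and 17.7 FPKM in c-RelKO Treg (log2 change 1.09 ± 0.30, adjusted p = 0.020), and Clk2 was higher by 0.77 ± 0.18 (adjusted p = 0.0076). Snrpa, Sf3a3, Snrpa1, Srsf4, Sf3b5, Sf3b2 and Hnrnpul1 made up the rest, with changes of 0.54 to 0.82. Cell cycle genes were higher in 23 of 24 here too, with a median of 2.31, where 19.5% of all genes were called higher. Their part was not tested. Leaving out replicate 2 of DKO Treg left 1 call, Srsf1, and leaving out replicate 1 of c-RelKO Treg left 5.

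In Treg labelled p65KO, no splicing gene changed past the threshold. Of 53 genes 0 were called by limma, where 0.0347% of all genes were higher and 0.00867% lower, and 2 of the 53 had an unadjusted p under 0.05. Those were Sf3b1, at 200, 183 and 165 FPKM in p65KO Treg, against 228, 202, 249 and 238 FPKM in WT Treg (log2 change -0.32 ± 0.11, adjusted p = 0.33), and Snrpa (0.43 ± 0.17, adjusted p = 0.39). Although the Sf3b1 groups did not overlap, its change was not called, and no difference is drawn from it. Rel averaged 91.0 FPKM in p65KO Treg (24.6 to 128 FPKM), against 188 FPKM in WT Treg (27.5 to 271 FPKM). In the stimulated p65KO library Rel was at 77.4 FPKM, against 283 FPKM in stimulated WT Treg of the same run. The part of Rel was not tested. In the fit blocked on run, Clk4 and Srsf5 were lower and 0 higher, where 7.08% of all genes were higher and 1.74% lower.

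**Figure D4:**
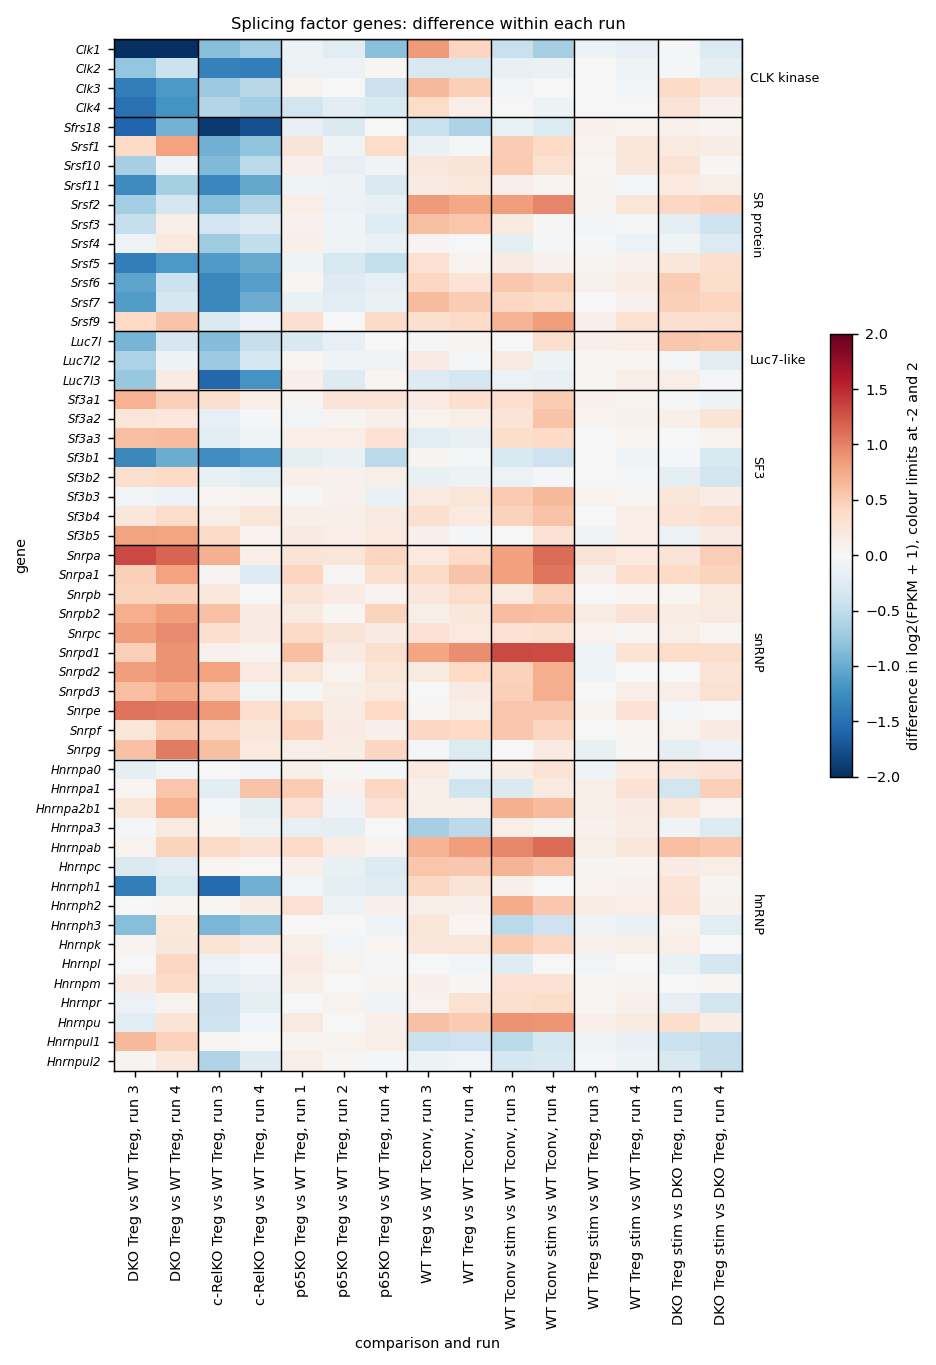
Difference in log2(FPKM + 1) between groups within each run, for the 53 genes tested, ordered by family; blue is lower and red higher in the group named first, with colours limited at -2 and 2. In unstimulated DKO against WT Treg the 4 CLK kinases are blue and the 11 snRNP genes red in both runs, while the columns for stimulated against unstimulated WT Treg are pale.

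Between unstimulated WT Treg and WT Tconv, the number of calls depended on how run was treated: 2 genes without it and 19 with run as a block. Without the block, Snrpd1 and Hnrnpab, an hnRNP that binds AU-rich RNA, were higher in Treg, and 0 were lower, where 7.03% of all genes were higher and 5.53% lower. Hnrnpab was at 170, 223, 238 and 238 FPKM in WT Treg, against 148 and 133 FPKM in WT Tconv (log2 change 0.61 ± 0.17, adjusted p = 0.030). Snrpd1 was at 38.4, 60.7, 58.6 and 44.5 FPKM in WT Treg, against 33.4 and 22.98 FPKM in WT Tconv (log2 change 0.82 ± 0.21, adjusted p = 0.022). Groups did not overlap in either gene, with replicate 1 of WT Treg nearest to Tconv. Both genes also rose with stimulation in WT Tconv, as given below. Myc was at 267 and 270 FPKM in unstimulated WT Treg of runs 3 and 4, close to stimulated WT Treg. It was at 29.9 and 33.9 FPKM in unstimulated WT Tconv of those runs. The part of activation in this comparison was not tested. Counts were 0 to 6 when single libraries were left out: 6 without WT Treg replicate 1, 1 without WT Treg replicate 4 or WT Tconv replicate 1, and 0 without WT Treg replicate 2 or WT Tconv replicate 2. Blocked on run, 15 were higher and 4 lower, where 19.5% and 26.4% of all genes were called. Srsf2 was at 344 and 297 FPKM in the WT Treg libraries of runs 3 and 4, against 190 and 174 FPKM in WT Tconv of the same runs (blocked log2 change 0.76, adjusted p = 0.00021), and Hnrnpa3 had a blocked change of -0.56 (adjusted p = 0.00090).

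After stimulation for 3 h, 4 of 11 snRNP and 4 of 16 hnRNP genes rose in WT Tconv. Of 53 genes 10 were higher and 0 lower, where 6.69% and 5.16% of all genes were called; the median change was 0.33 for these genes and -0.09 for all genes. All 11 snRNP genes tested had positive changes, also under size factors, and 4 were called; 4 hnRNP, 1 SR and 1 SF3 gene made up the rest, and 0 of the CLK or Luc7-like genes were called. Myc, the growth regulator, was at 382 and 396 FPKM in stimulated Tconv, against 29.9 and 33.9 FPKM in unstimulated Tconv.

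Snrpd1 was at 85.0 and 58.0 FPKM in stimulated Tconv, against 33.4 and 22.98 FPKM in unstimulated Tconv (log2 change 1.31 ± 0.25, adjusted p = 0.0036). Hnrnpab was at 289 and 291 FPKM in stimulated Tconv, against 148 and 133 FPKM in unstimulated Tconv (log2 change 1.04 ± 0.20, adjusted p = 0.0037). In each run the stimulated library held the higher value of both. Snrpa was at 37.4 and 44.5 FPKM in stimulated Tconv, against 20.7 and 20.0 FPKM in unstimulated Tconv (log2 change 0.97 ± 0.22, adjusted p = 0.010), and Snrpa1 was higher by 0.95 ± 0.20 (adjusted p = 0.0078). Srsf2, an SR protein that binds exonic enhancers, was at 340 and 342 FPKM in stimulated Tconv, against 190 and 174 FPKM in unstimulated Tconv (log2 change 0.90 ± 0.24, adjusted p = 0.027). The groups of Snrpa and Srsf2 were well separated. Hnrnpu, a nuclear matrix protein, Hnrnpa2b1, Hnrnph2, Snrpb2 and Sf3b3 rose by 0.58 to 0.89 (SE 0.13 to 0.22, adjusted p = 0.011 to 0.047).

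Among CLK kinases, Clk1 was at 232 and 189 FPKM in stimulated Tconv, against 317 and 300 FPKM in unstimulated Tconv, and was not called. Of all genes tested, 6.69% were called higher and 5.16% lower here. Of 15 snRNP assembly genes, 3 were higher, 20% of them. Smn1, the core of the assembly complex, had a log2 change of 0.80 (limma, adjusted p = 0.0085) and Prmt5 of 1.15 (adjusted p = 0.015). Of the 92 other spliceosome genes 9 were higher and 0 lower, 9.78% and 0%, so the share called higher was near that of all genes. They were led by U2af2, which binds the polypyrimidine tract, at 0.69 (adjusted p = 0.0038). Magoh and Magohb, of the exon junction complex, rose by 0.73 and 1.62 (adjusted p = 0.025 and 0.019). The cell cycle list had 0 higher and 1 lower of 24, and 0 of the nuclear-retained transcripts or SR protein kinase and phosphatase genes were called. Each group has 2 libraries, and leaving out any 1 left 0 to 4 calls: 3 without unstimulated replicate 1, 0 without unstimulated replicate 2, and 4 and 2 without stimulated replicates 1 and 2. With run as a block, 27 were higher and 3 lower, where 17.3% and 25.8% of all genes were called.

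Treg with the same stimulation label gave no call in WT and none in DKO cells. Stimulated against unstimulated WT Treg had 0 calls among the 53 genes and 0% of all genes called, also with the block on run, with 1 of the 53 at an unadjusted p under 0.05; the libraries of a run were nearly alike, as described above. Snrpd1 was at 55.1 and 53.9 FPKM in stimulated WT Treg, against 58.6 and 44.5 FPKM in the unstimulated libraries of the same runs. Stimulated against unstimulated DKO Treg also had 0 calls, with 3 at an unadjusted p under 0.05, where 3.86% of all genes were higher and 6.13% lower, although Myc was at 185 and 155 FPKM in stimulated DKO Treg, against 44.6 and 43.2 FPKM in unstimulated DKO Treg. Hnrnpab was at 378 and 472 FPKM in stimulated DKO Treg, against 248 and 324 FPKM in unstimulated DKO Treg (log2 change 0.57 ± 0.20, adjusted p = 0.083). With run as a block 6 were higher and 3 lower in DKO Treg, where 11.3% and 30.8% of all genes were called, and with size factors as well 23 were higher and 1 lower, so the absence of calls depends on the setting.

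The difference in response between cell types was tested itself; since stimulated and unstimulated WT Treg were close to identical, its Treg term is small and it rests mainly on the Tconv libraries, and the labels do not say whether the WT Treg libraries of a run are separate cultures. For stimulation in WT Treg minus stimulation in WT Tconv, limma called 0 of the 53 genes, with 9 at an unadjusted p under 0.05, where 0.0867% of all genes were higher and 0.945% lower. Snrpd1 had a difference of -1.18 ± 0.32 and Snrpa of -1.01 ± 0.29 on the log2 scale (adjusted p = 0.11 and 0.12). The block on run called 12 genes, all with a smaller change in Treg, where 8.26% of all genes were called in that direction and 7.71% in the other; Snrpd1 was at -1.19 (adjusted p = 0.0052) and Snrpa at -0.79 (adjusted p = 0.018). For stimulation in DKO minus WT Treg, 0 were called, 0 had an unadjusted p under 0.05, where 0.737% of all genes were higher and 0.234% lower; the block on run also called 0, where 4.54% of all genes were higher and 9.44% lower. Stimulated WT Treg against stimulated WT Tconv had 0 calls, with 6 at an unadjusted p under 0.05, where 3.62% of all genes were higher and 3.02% lower; with the block 4 were higher and 8 lower, where 16.8% and 20.2% of all genes were called.

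Under stimulation, DKO Treg had 11 genes higher and 8 lower than WT Treg, 20.8% and 15.1% of the 53, where 16.6% and 16.2% of all genes were called, and 21 and 13 with run as a block, where 31.4% and 31.3% were. The stimulated WT Treg libraries nearly repeat the unstimulated ones of the same runs, as given above, so this comparison is not independent of the unstimulated one. Rela was at 107 and 99.0 FPKM in stimulated DKO Treg, against 126 and 118 FPKM in stimulated WT Treg. Clk1 was at 77.2 and 74.0 FPKM in stimulated DKO Treg, against 537 and 363 FPKM in stimulated WT Treg (log2 change -2.53 ± 0.43, adjusted p = 0.00066). Sf3b1 was at 99.3 and 96.7 FPKM in stimulated DKO Treg, against 249 and 225 FPKM in stimulated WT Treg (log2 change -1.26 ± 0.15, adjusted p = 4.1e-05). Snrpa was at 72.3 and 86.2 FPKM in stimulated DKO Treg, against 28.5 and 30.5 FPKM in stimulated WT Treg (log2 change 1.39 ± 0.22, adjusted p = 0.00033). None of these 3, which were picked from the called genes, overlapped between groups. Clk4, Clk2, Sfrs18, Srsf11, Luc7l2 and Hnrnph1 were also lower, by log2 changes of -1.27 to -0.52, and Snrpc, Snrpd1, Snrpd3, Snrpa1, Snrpb2, Sf3a1, Sf3a3, Sf3b4, Sf3b5 and Hnrnpab were higher, by 0.46 to 0.96. Srsf1 was at 111 and 154 FPKM in stimulated DKO Treg, against 77.3 and 93.2 FPKM in stimulated WT Treg, and was not called. Leaving out 1 library left 5 to 13 calls: 12 without DKO replicate 1, 9 without DKO replicate 2 and 5 without WT replicate 1. Cell cycle genes were higher in 23 of 24 here as well, and Malat1 was at 25.1 and 26.3 FPKM in stimulated DKO Treg, against 317 and 249 FPKM in stimulated WT Treg; their part was not tested.

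The single stimulated libraries of the other knockouts lean on the spread of the other groups. Both lie in run 4, while the stimulated WT Treg libraries lie in runs 3 and 4. In the c-RelKO library Sf3b1 was the only call, at 122 FPKM against 249 and 225 FPKM in stimulated WT Treg (log2 change -0.96 ± 0.18, adjusted p = 0.044); 0.0607% of all genes were higher and 0.286% lower. This call was lost under size factors and when either WT library was left out. Clk2 was at 15.8 FPKM in that library, against 31.1 and 30.6 FPKM in stimulated WT Treg, and Sfrs18 at 11.6 FPKM, against 31.6 and 31.2 FPKM; neither was called (adjusted p = 0.095 and 0.25). Summed erythroid and myeloid markers stood at 6.94 and 13.4 FPKM in that library. With run as a block 0 were higher and 7 lower, where 1.29% and 7.26% of all genes were called. The stimulated p65KO library had 0 calls, with 3 genes at an unadjusted p under 0.05, where 0.65% of all genes were higher and 0.364% lower; its Snrpb2 was at 79.9 FPKM, against 46.5 and 53.2 FPKM in stimulated WT Treg (adjusted p = 0.13). With the block 8 were higher and 1 lower there, where 19.8% and 7.41% of all genes were called.

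The TAT-Cre set has 1 library per group and no test; a log2 difference of at least 0.5 on the same scale is used as a size rule. The library labelled NF-kB del had 0 of 53 genes past it upward and 2 downward, Snrpf at 16.5 FPKM, against 26.3 FPKM in the WT Treg control, and Snrpg at 27.996 FPKM, against 47.4 FPKM; 6.76% of 10424 genes passed upward and 3.66% downward. Clk1 was at 111 FPKM in that library, against 103 FPKM in the control, and Sf3b1 at 134 FPKM, against 135 FPKM. Both differ little between these libraries. Rela was at 124 FPKM in the library labelled NF-kB del, against 125 FPKM in the control, and Rel at 38.7 FPKM, against 171 FPKM. Foxp3 was lower in this control than in the library labelled FoxP3 del, so the control's own label carries the same doubt in every comparison that uses it. The library labelled FoxP3 del had 1 upward, Snrpc at 34.8 FPKM, against 24.1 FPKM in the control, where 9.93% of genes passed upward and 2.18% downward; since its Foxp3 goes against the label, no direction is drawn from it. The WT Treg control against the WT Tconv control had 2 upward and 3 downward, where 32.4% and 7.67% of genes passed. Hnrnpab was at 382 FPKM in the Treg control, against 561 FPKM in the Tconv control, and Srsf2 at 351 FPKM, against 551 FPKM. Under size factors that comparison had 1 upward and 18 downward, so its split rests on the scaling.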

How the data were processed

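The deposited tables hold 1 FPKM value per gene and library, made by the authors with Cufflinks after TopHat, on build mm9, per the submitters' processing notes; their versions, the gene annotation and any use of strand were not given in the sources used here, so overlapping genes may share reads. Per the file headers, each value has a status, and the 250 of 23235 symbols not OK in every library were left out. The members and gene lists were chosen with earlier results of these data known. In each comparison up to 10 called genes per direction whose mean in either group reached 5 FPKM could be named, with every SR, CLK and Luc7-like gene, the hnRNP, SF3 and snRNP genes called most often or highest or lowest in level, and up to 3 genes per other list by smallest p. Snrpe, Snrpg, Snrpf, uncalled Sf3b1, Snrpa, Snrpb2, Snrpd1 and Hnrnpab, and the genes of the TAT-Cre set, were named after their values were seen.

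Depth was read from Cufflinks' upper bounds, and covers counting error only. The log2(FPKM + 1) values went into limma 3.58.1 under R 4.3.3 (trend, 1 mean per group, 21 libraries outside the TAT-Cre set, 11 residual degrees of freedom), on the 11532 genes that reached 1 FPKM in 2 or more libraries, with Benjamini-Hochberg adjustment over all of them; the code was tested on simulated data. FPKM fold changes on that scale understate changes of low genes. Deviations from group means correlated with a mean r of 0.432 over 51 pairs of libraries in the same run and -0.209 over 105 pairs in different runs; these pairs share libraries and no p is given. Alternatives were run as a block, replicate number as a block, size factors, a pseudocount of 0.1, no filter, and leaving out single libraries or 3 libraries with other cells' markers. Those 3 were WT Treg replicate 1, p65KO Treg replicate 1 and c-RelKO Treg replicate 2. Other libraries with such markers were kept, among them p65KO Treg replicate 3 (742 FPKM of summed myeloid markers) and WT Treg replicate 2 (634 FPKM of summed erythroid markers). Of the listed gene symbols, 12 were not found. Motifs were matched in RefSeq windows of GRCm38.p6 with no coordinates converted.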

Additional observations from a re-analysis of the deposited data

Results flagged for a closer look

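In WT Treg, the only group of 4 libraries, 3 genes had 1 library far from the other 3 by Dixon's criterion; with 53 genes examined and chance picking about 1 in 20 groups, about 2.65 are due by chance, so 3 is near the chance level. Replicate 1, the library with low Rel and raised B cell and myeloid markers, was high for Luc7l3, at 52.7 FPKM against 40.7 to 42.0 FPKM in the others, and for Sfrs18, at 53.8 FPKM against 29.8 to 30.9 FPKM. Replicate 4, the one WT Treg library of run 4, was low for Snrpg, at 27.6 FPKM against 118 to 125 FPKM.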

How the results depend on the processing

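Of 77 calls named for single genes, 0 changed direction under any alternative: of 616 values under alternatives other than leaving out 1 library, 39 no longer passed, and of 376 values with 1 library left out, 154 no longer passed. The counts of called genes below keep the order c-RelKO, DKO and p65KO against WT Treg, DKO against c-RelKO Treg, WT Treg against Tconv, stimulated against unstimulated Tconv, stimulated against unstimulated DKO Treg, then under stimulation DKO against WT Treg, WT Treg against Tconv, c-RelKO and p65KO against WT Treg, and last the difference in response between WT Treg and Tconv. With run as a block they were 29, 36, 2, 30, 19, 30, 9, 34, 12, 7, 9 and 12, and without WT Treg replicate 1, p65KO Treg replicate 1 and c-RelKO Treg replicate 2 as well, an alternative chosen after seeing the data, 29, 37, 1, 21, 23, 31, 14, 34, 14, 7, 9 and 15. With run as a block and size factors they were 30 for c-RelKO, 3 for p65KO, 21 (11 higher, 10 lower) for DKO against c-RelKO, 25, 28, 24, 34, 10, 7, 7 and 14 for the rest in that order, and 1 for the difference in response between DKO and WT Treg. Size factors alone gave 6 for c-RelKO, 5 for DKO against c-RelKO Treg and 0 for stimulated c-RelKO Treg, and in the TAT-Cre set 0 for FoxP3 del and 19 for the Treg against the Tconv control. Without those 3 libraries the counts that moved were 7 for WT Treg against Tconv, 2 for stimulation of DKO Treg, and under stimulation 3 for WT Treg against Tconv, 3 for c-RelKO and 1 for p65KO, with 1 for the difference in response; no filter gave 1 for stimulation of DKO Treg. The cause of these moves was not tested.

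With the replicate block, the counts that moved were 16 for c-RelKO against WT Treg, 8 for WT Treg against Tconv, 5 for stimulation of WT Treg, 2 for stimulation of DKO Treg, 1 for stimulated WT Treg against Tconv and 3 for the difference in response. Libraries with the same replicate number had a mean correlation of 0.222 and a lowest of -0.499 over 57 pairs, so the numbers were not taken to pair samples. Leaving out 1 library gave 5 to 11 calls for c-RelKO, 11 to 23 for DKO, 1 to 10 for DKO against c-RelKO, 0 to 6 for WT Treg against Tconv, 0 to 4 for stimulation of Tconv, 5 to 13 for stimulated DKO against WT Treg, and 0 in every fit for the other comparisons. Where that left 1 library in a group, it was assumed to vary like the other groups. Snrpn and Srsf12 stayed under the filter and were not tested.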
